A study of Mus musculus with 13 samples.

Results

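The genes described here are Bambi and 9 genes of the TGF-beta pathway (Tgfb1, Tgfbr1, Tgfbr2, Smad2, Smad3, Smad4, Smad7, Skil and Nrros), read by RNA sequencing in microglia sorted from the brains of mice that form amyloid plaques, with or without Trem2, a lipid-sensing receptor of microglia. They were chosen by name, with earlier results of these data known, and all 10 were found among the 52636 genes measured. The study had already reported Bambi as reduced in these PS2APP;Trem2ko microglia, so its difference here is not separate support. The 13 mice all carried the PS2APP transgenes, human presenilin 2 with the N141I mutation and human APP with the K670N/M671L mutations, and were 14 to 15 months old. The PS2APP;Trem2wt group held 7 mice (5 females and 2 males) with intact Trem2, and the PS2APP;Trem2ko group held 6 mice (5 females and 1 male) that also lacked Trem2 through a null allele (Trem2tm1(KOMP)Vlcg). This allele was made on a C57BL/6N background and crossed into a C57BL/6J transgenic line, and no group without the transgenes enters the comparison. Brain-resident myeloid cells were sorted from cortex and hippocampus as CD11b+CD45+Ccr2-Ly6g-, a gate that keeps microglia and also perivascular macrophages.

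TGF-beta is made as a latent complex that is tethered and stored until it is activated. Active ligand binds the type II receptor, which recruits and phosphorylates the type I receptor, and the receptors in turn phosphorylate Smad2 and Smad3, which enter the nucleus with Smad4. Several layers of inhibition hold the pathway back: Bambi is a decoy that resembles a type I receptor but lacks the kinase, Smad7 blocks the receptors and is itself induced by the signal, and Skil represses transcription by the Smad complex. In microglia TGF-beta is known for maintaining the resident identity of the cells, and Nrros is the anchor that presents latent TGF-beta on their surface. Bambi is also known as a positive factor in Wnt signaling.

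The labels were checked first on Trem2. It measured 818, 1016 and 1244 nRPKM (lowest, median and highest; reads per kilobase scaled to sequencing depth, adjusted by library size factors) in PS2APP;Trem2wt mice and 0.393, 0.629 and 2.29 nRPKM in PS2APP;Trem2ko mice, so every library matched its label. Total counts over genes ran from 26120961 to 120569609 per mouse, with medians of 35201380 in PS2APP;Trem2wt and 55371726 in PS2APP;Trem2ko. The defining markers of microglia were abundant in both groups, with a summed level of 15920 to 19110 nRPKM over 10 markers in PS2APP;Trem2wt mice and 16070 to 17770 nRPKM in PS2APP;Trem2ko mice. The median sum was lower in PS2APP;Trem2ko, at 17060 against 18820 nRPKM in PS2APP;Trem2wt, and the cause was not tested. The neutrophil markers were at 13.1 to 246 nRPKM in sum in PS2APP;Trem2wt and 0.148 to 40.3 nRPKM in PS2APP;Trem2ko, with Ly6g itself at no more than 0.137 nRPKM in any mouse, and their part in the results was not tested. The summed levels of all 11 marker lists overlapped between the groups, and 3 of their genes were called, Cx3cr1, Flt1 and Cspg4, all lower. Since RNA was pooled over the sorted cells of a mouse, fewer cells that express a gene and less RNA per cell cannot be told apart.

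In PS2APP;Trem2wt microglia the receptors were the most abundant of the 10 transcripts and the inhibitors Smad7 and Bambi the least. On the nRPKM scale, which corrects for gene length, Tgfbr1 led with 323 ± 43.8 (SD, n = 7 mice). Tgfbr2 (113 ± 11.0) and Nrros (96.7 ± 7.56) came next and their ranges overlapped. Tgfb1 (46.9 ± 6.86) overlapped with Skil (35.5 ± 4.26). The effectors Smad3 (17.4 ± 1.55), Smad2 (17.3 ± 1.44) and Smad4 (16.9 ± 2.38) lay together, with overlapping ranges. Smad7 stood below all of these at 8.24 ± 1.90 nRPKM, and Bambi stood last at 1.57 ± 0.247 nRPKM. Without Trem2, Tgfbr1 stayed first and Bambi last by mean level. Nrros ranked ahead of Tgfbr2 at rank 2, with overlapping ranges (91.1 to 111 and 74.2 to 104 nRPKM). Smad4 ranked 6, and its range (15.2 to 20.6 nRPKM) overlapped that of Smad3 (13.3 to 19.2 nRPKM).

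Among the 10 genes, the inhibitors Bambi and Smad7 were lower in PS2APP;Trem2ko microglia and none was higher (edgeR quasi-likelihood test, Benjamini-Hochberg adjusted p of 0.05 or less over 17086 genes tested). All 10 passed the filter on low counts. Of the 2 positive estimates, 0 had an unadjusted p of 0.05 or less, and DESeq2 and voom with limma likewise called 0 higher. In the lower direction voom with limma called the same 2 genes, DESeq2 called 4, adding Tgfb1 and Tgfbr2, and edgeR with 1 mouse left out called 1 to 4. For background, 262 of the 17086 genes, or 1.53%, were called lower and 86, or 0.503%, were called higher. The fitted log2 fold change (PS2APP;Trem2ko over PS2APP;Trem2wt) was negative for 8 of the 10 genes and for 49.3% of all genes, with a median of -0.18 over the 10 genes and 0.0039 over all genes. An unadjusted p of 0.05 or less was found for 5 of the 10 (Bambi, Smad7, Tgfb1, Tgfbr1 and Tgfbr2) and for 14.8% of all genes. Since the 10 were chosen with Bambi already known to be lower, these shares are given as a description.

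**Figure D1:**
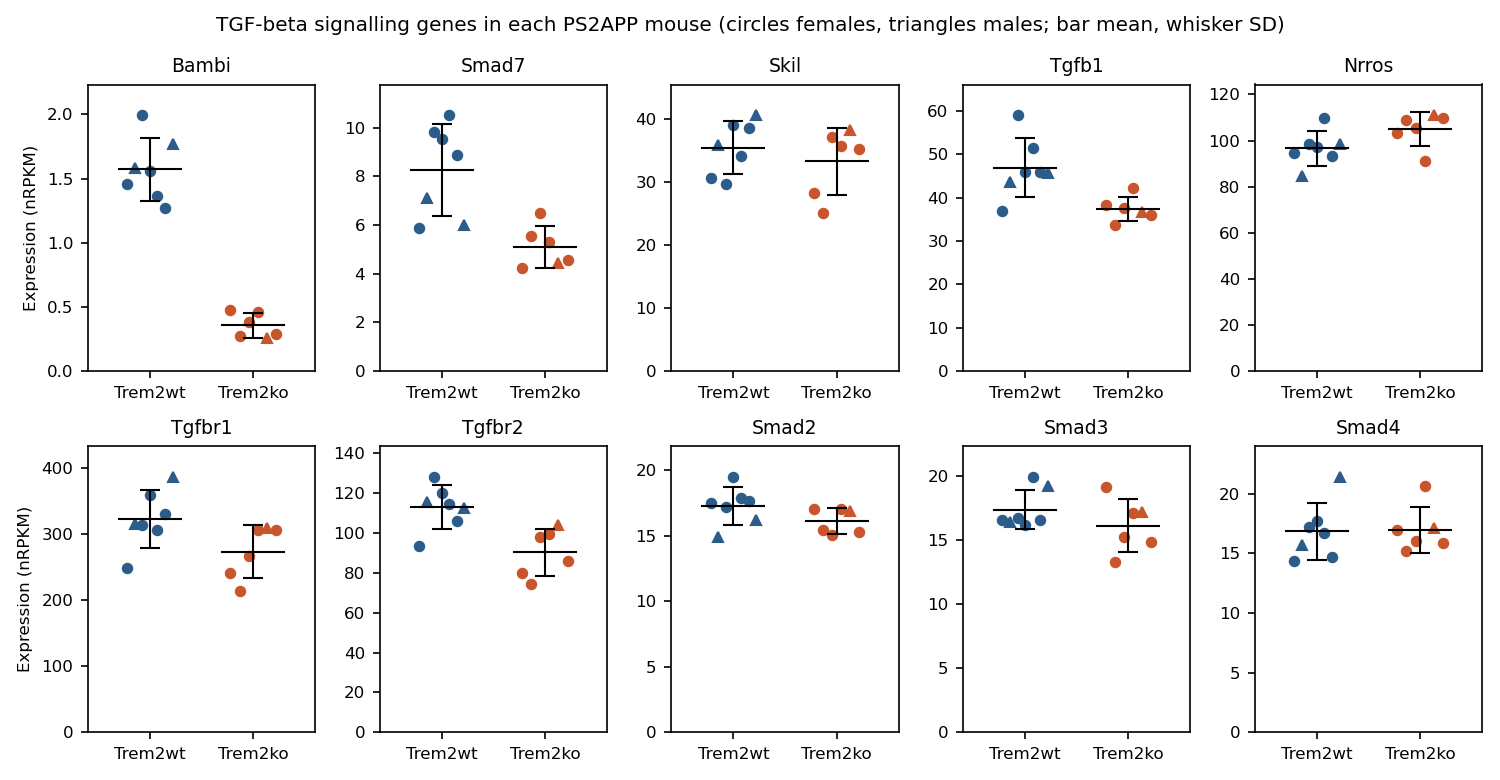
Expression in nRPKM (y axes, linear from 0) of the 10 genes in each mouse, with PS2APP;Trem2wt in blue (n = 7) and PS2APP;Trem2ko in orange (n = 6). Circles are females, triangles are males, and bars and whiskers are the mean and SD. Bambi is the only one of the 10 for which every PS2APP;Trem2ko mouse (at most 0.475 nRPKM) lies below every PS2APP;Trem2wt mouse (at least 1.27 nRPKM).

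Bambi, the decoy receptor, had the largest difference. The gene (ENSMUSG00000024232, GRCm38 chr18:3507923-3516404, plus strand) measured 1.27, 1.37, 1.46, 1.56, 1.58, 1.77 and 1.99 nRPKM in the 7 PS2APP;Trem2wt mice. It measured 0.254, 0.275, 0.289, 0.378, 0.458 and 0.475 nRPKM in the 6 PS2APP;Trem2ko mice. The groups were well apart: the lowest PS2APP;Trem2wt mouse was 2.67 times the highest PS2APP;Trem2ko mouse. All PS2APP;Trem2ko mice below all PS2APP;Trem2wt mice was a pattern held by 201 of the 17086 genes tested (1.18%), and Bambi was the one gene of the 10 that showed it.

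The fitted log2 fold change of Bambi was -2.15 (SE 0.18, 95% interval -2.52 to -1.78), or 4.44-fold lower, with an edgeR adjusted p of 4.3e-06. By p-value it ranked 9 of 17086 genes and by log2 fold change, lowest first, 65. Between 93 and 1446 reads per mouse stand behind these values, so the gene was scarce but well counted. The difference was seen in both sexes: PS2APP;Trem2wt males measured 1.58 and 1.77 nRPKM and the PS2APP;Trem2ko male 0.254, and over females alone the log2 fold change was -2.03 (adjusted p = 0.00026, edgeR).

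Vascular cells also make Bambi, so the 8 endothelial markers were read beside it. Their summed level was 10.6 to 28.1 nRPKM in PS2APP;Trem2wt and 11.8 to 21.5 nRPKM in PS2APP;Trem2ko mice. The groups overlapped, and 1 of the 8 markers was called, with 4 estimates negative, 4 positive and a median log2 fold change of 0.014. The one called was Flt1, a VEGF receptor, with a log2 fold change of -2.20 (SE 0.28, edgeR adjusted p = 0.00034) and no overlap between the groups. The tight junction gene Cldn5, a defining endothelial marker, had a log2 fold change of -0.16 (95% interval -1.25 to 0.93), and its medians were 1.16 and 1.94 nRPKM in PS2APP;Trem2wt and PS2APP;Trem2ko. The positive estimates were 0.48 for the VEGF receptor Kdr (unadjusted p = 0.022, edgeR adjusted p = 0.23), 0.31 for Slco1a4, 0.26 for Itm2a and 0.11 for Pecam1, and the other negative ones -0.09 for Cdh5 and -0.08 for Ly6c1. The 9 markers of pericytes, smooth muscle and fibroblasts summed to 0.717 to 13.2 nRPKM in PS2APP;Trem2wt (median 1.72). In PS2APP;Trem2ko mice they summed to 0.822 to 4.63 nRPKM (median 3.02). Of these markers 5 could be tested and 0 were called. The part of RNA from endothelial cells, pericytes or smooth muscle in the level of Bambi was not tested.

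Smad7, the inhibitory Smad, was the other gene called. It lies at GRCm38 chr18:75367529-75395935 (plus strand) and measured 5.88, 6.01, 7.09, 8.86, 9.54, 9.81 and 10.5 nRPKM in PS2APP;Trem2wt mice against 4.23, 4.43, 4.55, 5.29, 5.55 and 6.49 nRPKM in PS2APP;Trem2ko mice. The groups met at one edge: 5 of 6 PS2APP;Trem2ko mice were below the lowest PS2APP;Trem2wt mouse, and the other one lay above 2 PS2APP;Trem2wt mice, a female and a male. The log2 fold change was -0.70 (SE 0.15, 95% interval -1.02 to -0.38), or 1.62-fold lower, with an edgeR adjusted p of 0.025. The adjusted p was above 0.05 after leaving out PS2APP;Trem2ko replicate 1, 5 or 6 or PS2APP;Trem2wt replicate 4 or 5, reaching 0.063 at most (edgeR), while the log2 fold change stayed between -0.78 and -0.63 over all 13 mice left out in turn. In PS2APP;Trem2wt mice both males (6.01 and 7.09 nRPKM) lay below 4 of the 5 females. Over females alone Smad7 had an adjusted p of 0.034 (edgeR).

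Skil (GRCm38 chr3:31095058-31122577, plus strand), the nuclear co-repressor, did not pass the test. It measured 29.7, 35.9 and 40.7 nRPKM (lowest, median and highest) in PS2APP;Trem2wt and 25.1, 35.5 and 38.2 nRPKM in PS2APP;Trem2ko mice. Medians were close and ranges overlapped over most of their length. The log2 fold change was -0.09 with a 95% interval of -0.32 to 0.14 (edgeR adjusted p = 0.74), which leaves room for a modest difference either way. Skil and Smad7 are both known targets of the pathway as well as inhibitors of it.

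The ligand Tgfb1 (GRCm38 chr7:25687002-25705077, plus strand) measured 36.9, 45.9 and 59.0 nRPKM in PS2APP;Trem2wt and 33.8, 37.1 and 42.1 nRPKM in PS2APP;Trem2ko mice. Of the 6 PS2APP;Trem2ko mice, 3 were below the lowest PS2APP;Trem2wt mouse, replicate 1, and the highest PS2APP;Trem2wt mouse, replicate 3, was farther from its neighbour (51.4 nRPKM) than replicate 1 was from its own (43.6 nRPKM). The log2 fold change was -0.33 (SE 0.09, 95% interval -0.53 to -0.13) with an edgeR adjusted p of 0.085. Leaving out PS2APP;Trem2wt replicate 1 gave an adjusted p of 0.024 (edgeR), and leaving out each of the other 12 mice gave 0.075 to 0.16, with a log2 fold change of -0.27 without PS2APP;Trem2wt replicate 3. The related ligands Tgfb2 and Tgfb3 were scarce, at medians of 0.171 and 0.129 nRPKM in PS2APP;Trem2wt mice.

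Nrros (GRCm38 chr16:32142785-32165594, minus strand), the anchor of latent TGF-beta on microglia, had a positive estimate. It measured 84.4, 97.4 and 110 nRPKM in PS2APP;Trem2wt and 91.1, 107 and 111 nRPKM in PS2APP;Trem2ko mice. The groups overlapped broadly, with 2 PS2APP;Trem2ko mice just above the highest PS2APP;Trem2wt mouse and none below the lowest. The log2 fold change was 0.12 with a 95% interval of -0.03 to 0.26 (edgeR adjusted p = 0.46). Lrrc32, which anchors latent TGF-beta on other cell types, had a median of 0.0051 nRPKM in PS2APP;Trem2wt and was too low to test.

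The receptor pair gave negative estimates that did not pass the test. Tgfbr1 (GRCm38 chr4:47353222-47414931, plus strand), the signalling type I receptor, measured 248, 315 and 387 nRPKM in PS2APP;Trem2wt and 213, 286 and 310 nRPKM in PS2APP;Trem2ko mice. Its log2 fold change was -0.24 (SE 0.11, 95% interval -0.47 to -0.01, edgeR adjusted p = 0.31). The highest PS2APP;Trem2ko mouse lay below the median of the other group, and 2 of 6 lay below its lowest mouse.

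Tgfbr2 (GRCm38 chr9:116084293-116175360, minus strand), the ligand-binding type II receptor, measured 93.3, 114 and 128 nRPKM in PS2APP;Trem2wt and 74.2, 91.9 and 104 nRPKM in PS2APP;Trem2ko mice. Here 3 of 6 PS2APP;Trem2ko mice were below the lowest PS2APP;Trem2wt mouse, which was again replicate 1. The log2 fold change was -0.33 (SE 0.09, 95% interval -0.52 to -0.13) with an edgeR adjusted p of 0.086. It was 0.039 without PS2APP;Trem2wt replicate 1 and 0.059 to 0.19 without each of the other 12 mice. That replicate was the lowest of its group for Tgfb1, Tgfbr1, Tgfbr2, Smad4 and Smad7 but not for Bambi.

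None of the Smad effectors passed the test. Smad2 (GRCm38 chr18:76241580-76310963, plus strand) measured 14.9, 17.5 and 19.5 nRPKM in PS2APP;Trem2wt and 15.1, 16.2 and 17.1 nRPKM in PS2APP;Trem2ko mice. No PS2APP;Trem2ko mouse was outside the range of the other group, though all 6 lay below its median. Smad3 (GRCm38 chr9:63646767-63757994, minus strand) measured 16.2, 16.6 and 20.0 nRPKM against 13.3, 16.2 and 19.2 nRPKM, with 3 PS2APP;Trem2ko mice below the lowest PS2APP;Trem2wt mouse. Smad4 (GRCm38 chr18:73639009-73703780, minus strand), the common partner, measured 14.4, 16.7 and 21.4 nRPKM against 15.2, 16.5 and 20.6 nRPKM.

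For all 3 effectors the 95% interval of the log2 fold change included 0. It ran from -0.24 to 0.04 for Smad2, from -0.29 to 0.07 for Smad3 and from -0.20 to 0.22 for Smad4 (edgeR adjusted p = 0.52, 0.60 and 0.99). A difference of 2-fold lay outside each of these intervals, and outside those of Tgfb1, Tgfbr1, Tgfbr2, Skil and Nrros as well. The Smad4 estimate was 0.01, and its sign changed to negative with voom and limma and with 4 of the 13 mice left out in turn.

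**Figure D2:**
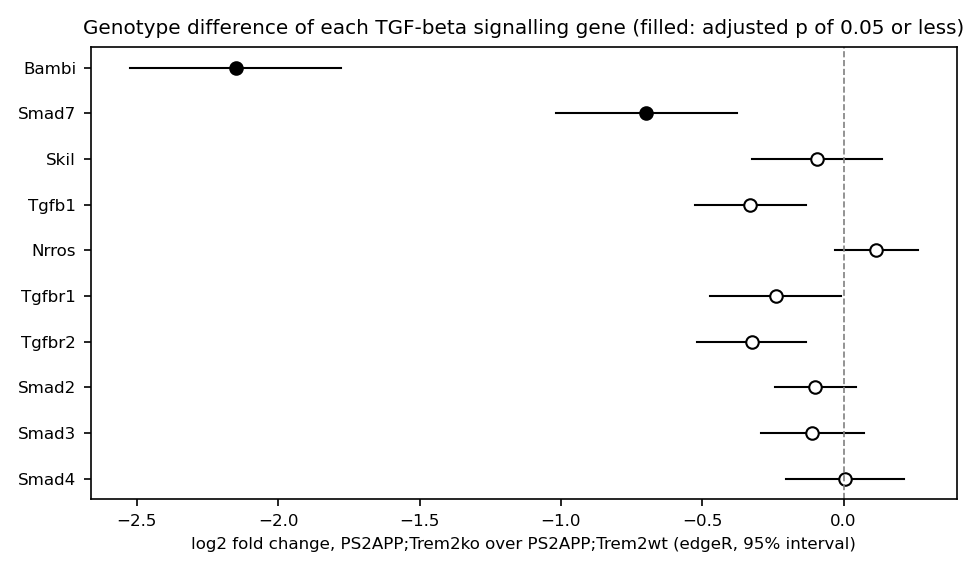
Fitted log2 fold change (x axis) of each of the 10 genes (y axis), PS2APP;Trem2ko over PS2APP;Trem2wt, as points with 95% intervals as lines. Filled points passed an edgeR adjusted p of 0.05: Bambi at -2.15 and Smad7 at -0.70, with the others between -0.33 and 0.12.

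Set against its receptors within each mouse, Bambi was a small share, and a smaller one without Trem2. These ratios were chosen after the values were known and are given as a description. Bambi was 0.383%, 0.458% and 0.637% of Tgfbr1 (lowest, median and highest) in PS2APP;Trem2wt mice and 0.0820%, 0.135% and 0.198% in PS2APP;Trem2ko mice. Against Tgfbr2 its median was 1.37% in PS2APP;Trem2wt and 0.379% in PS2APP;Trem2ko mice. The groups did not overlap in either ratio. Smad7 was 16.9% to 28.9% of the summed level of Smad2 and Smad3 in PS2APP;Trem2wt (median 25.9%) and 11.7% to 21.4% in PS2APP;Trem2ko (median 15.3%), and there the groups overlapped.

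Nrros and Tgfb1, the anchor and its cargo, had estimates of opposite sign. Their ratio was 1.67, 2.12 and 2.57 in PS2APP;Trem2wt and 2.16, 2.92 and 3.22 in PS2APP;Trem2ko mice, and in 5 of 6 PS2APP;Trem2ko mice it exceeded the highest value of the other group. The ratio of Tgfbr1 to Tgfbr2 overlapped broadly, at 2.44 to 3.44 and 2.73 to 3.56.

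**Figure D3:**
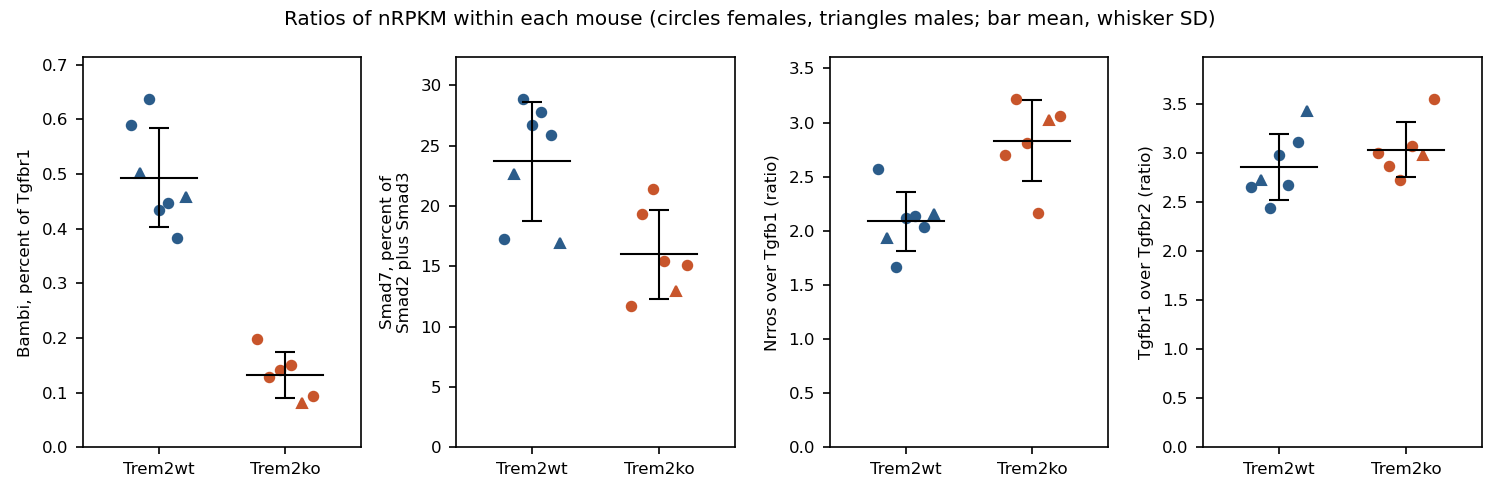
Ratios of nRPKM within each mouse (y axes, linear from 0), PS2APP;Trem2wt in blue (n = 7) and PS2APP;Trem2ko in orange (n = 6). Circles are females, triangles males, and bars and whiskers the mean and SD; Bambi relative to Tgfbr1 separates the groups (0.383% and above against 0.198% and below), while Tgfbr1 relative to Tgfbr2 overlaps.

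Few genes of the wider pathway passed the test. In 9 lists of ligands, activators, receptors, Smads, inhibitors, regulators, partners and targets, 127 genes other than the 10 were read and 100 could be tested. Of these, 2 were lower (Bhlhe40 and Cx3cr1) and 1 was higher (Gdf15), beside the 1.53% and 0.503% of all genes. The log2 fold change was negative for 66 of the 100, with a median of -0.10, and 93 of the 100 had an estimate under 2-fold.

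Of 21 genes listed under ligands of the TGF-beta, activin and BMP families, 8 were expressed highly enough to test. The most abundant was Tgfb1. The list held Bmp1, which is a protease despite its name and was among those tested (log2 fold change -0.65). Gdf15, a distant family member known as a stress-induced cytokine, was the one called. It rose from 0.160, 0.188 and 0.548 nRPKM in PS2APP;Trem2wt to 0.578, 0.865 and 1.08 nRPKM in PS2APP;Trem2ko mice, a log2 fold change of 1.76 (SE 0.30, edgeR adjusted p = 0.0047). The groups did not overlap, though the level was low, with 12 to 287 reads per mouse. The other 7 genes tested in this list, Bmp1 included, had negative estimates that did not pass the test. Tgfb2 was among them at -1.61 (95% interval -2.86 to -0.36, edgeR adjusted p = 0.20).

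Of the 15 genes for storage and activation of latent TGF-beta, 11 were tested and none was called, with 10 of the 11 estimates negative and a median of -0.36. An unadjusted p of 0.05 or less was found for 4 of them, DESeq2 called 2 lower (the integrin subunit Itgav and the binding protein Ltbp3) and voom with limma called Ltbp3. Itgb5, an integrin subunit that binds latent TGF-beta, was the most abundant at a mean of 795 nRPKM over the 13 mice, and its log2 fold change was -0.22 (95% interval -0.40 to -0.04, edgeR adjusted p = 0.24). Ltbp4, a latent TGF-beta binding protein, had the largest estimate, -1.72, but its 95% interval ran from -3.64 to 0.19 (edgeR adjusted p = 0.39), and its highest mouse was a PS2APP;Trem2wt mouse at 3.99 nRPKM against a group median of 0.144.

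None of the 12 receptors and co-receptors tested was called, with a median of -0.11. Here 3 had an unadjusted p of 0.05 or less, DESeq2 called Tgfbr2 lower, and voom with limma called 0. The co-receptor Tgfbr3 had the largest estimate (-0.44, 95% interval -2.29 to 1.42) at medians of 0.0447 and 0.0425 nRPKM. Among 7 Smad genes tested, Smad7 was the one called, and Smad1, an effector of BMP signalling and the most abundant by mean level (17.3 nRPKM), had a log2 fold change of -0.04 (95% interval -0.21 to 0.13).

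Bambi was the one called of 7 tested genes in the list of receptor-level inhibitors and extracellular antagonists. All 7 estimates were negative, and 3 had an unadjusted edgeR p of 0.05 or less. These were Bambi, Fkbp1a (log2 fold change -0.20) and Lefty1 (-0.26). The most abundant of the 7 was Pmepa1, also a target of the pathway, which acts inside the cell by sequestering Smad2 and Smad3. Its log2 fold change was -0.06 (95% interval -0.33 to 0.21). None of the 18 co-repressors and ubiquitin regulators was called, with 9 estimates negative and 9 positive. An unadjusted p of 0.05 or less was found for 4 of them, DESeq2 called 1 lower, Smurf1, and voom with limma called 0. This ubiquitin ligase, which works with Smad7 against the receptors, had the largest estimate at -0.50 (95% interval -0.78 to -0.22, edgeR adjusted p = 0.066), with 4 of 6 PS2APP;Trem2ko mice below the lowest PS2APP;Trem2wt mouse. Nor was any of the 12 Smad partners and adaptors called by edgeR, DESeq2 or voom with limma, with 1 unadjusted p of 0.05 or less. The endosomal adaptor Hgs, the most abundant of them, had an estimate of 0.06 (95% interval -0.11 to 0.23), and the transcription factor Runx3 the largest, -0.67 (95% interval -1.69 to 0.35).

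Of 20 tested genes that TGF-beta or BMP commonly induces or represses, Smad7 and Bhlhe40 were lower, with 13 estimates negative and a median of -0.11. Bhlhe40, a transcription factor of the circadian and immune response, measured 8.16, 12.3 and 23.4 nRPKM in PS2APP;Trem2wt and 1.06, 2.10 and 3.91 nRPKM in PS2APP;Trem2ko mice. The groups did not overlap, and the log2 fold change was -2.58 (SE 0.30, edgeR adjusted p = 0.00014). The most abundant target, Junb, an AP-1 factor, had an estimate of 0.16 (95% interval -0.37 to 0.69).

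The list of 20 genes read as dependent on TGF-beta in microglia also held Jun and Egr1, which are not markers of resident identity. Of these 20 genes 1 was called, and the median log2 fold change was -0.03. That gene was Cx3cr1, the fractalkine receptor, at -0.49 (SE 0.09, edgeR adjusted p = 0.0067), with medians of 1553 and 1086 nRPKM in PS2APP;Trem2wt and PS2APP;Trem2ko and 5 of 6 PS2APP;Trem2ko mice below the lowest PS2APP;Trem2wt mouse. P2ry12, Tmem119 and Sall1, classical markers of homeostatic microglia, had estimates of 0.00026, 0.04 and 0.16, with 95% intervals of -0.21 to 0.21, -0.14 to 0.22 and -0.09 to 0.40. Tgfb2, Tgfb3, Bmp1, Lrrc32, Itgav, Ltbp3, Fkbp1a and Lefty1 were picked for mention after their values were seen. So were Jun, Egr1, P2ry12, Tmem119, Sall1 and the endothelial, pericyte and oligodendrocyte-lineage marker lists.

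**Figure D4:**
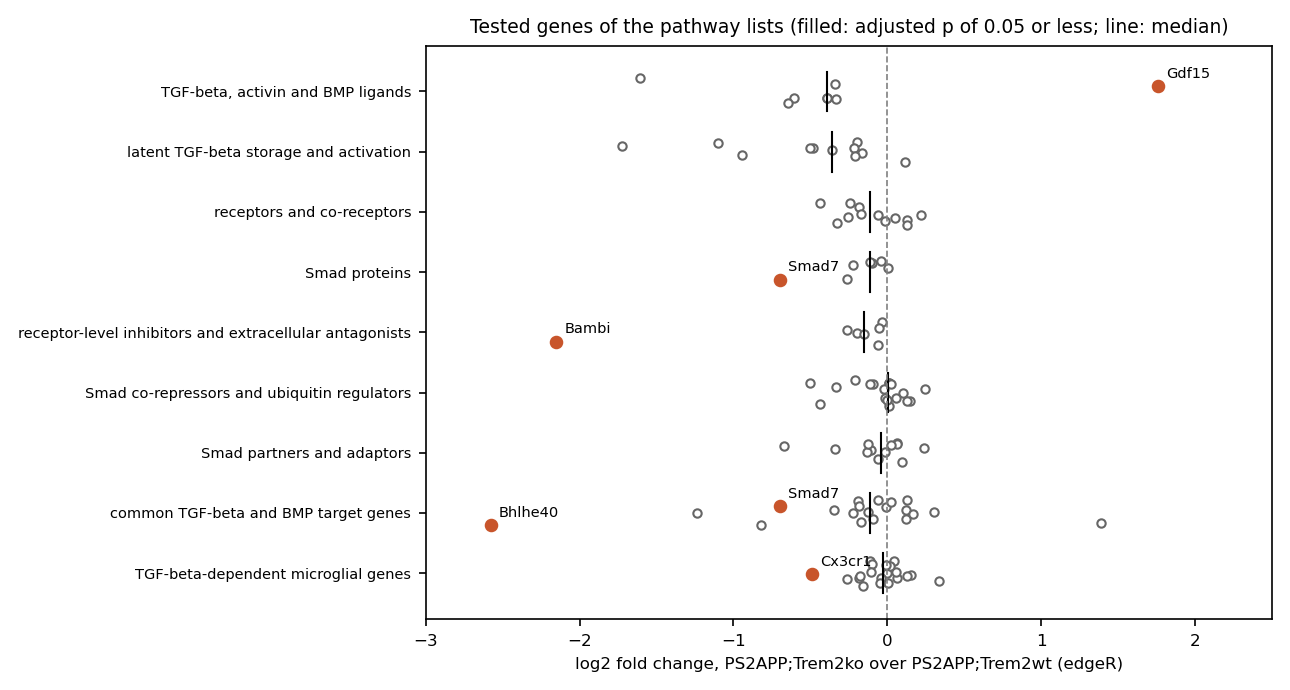
Fitted log2 fold change (x axis, PS2APP;Trem2ko over PS2APP;Trem2wt) of every tested gene in the 9 pathway lists (y axis), 1 point a gene and list, with the list's median as a vertical line. Filled points passed an edgeR adjusted p of 0.05 and are named. Gdf15 at 1.76 is the one filled point to the right of 0. Medians run from -0.39 for the ligand list, which includes the protease Bmp1, to 0.0037 for co-repressors and ubiquitin regulators.

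Among the genes whose level followed that of Bambi most closely over the 13 mice were Trem2, Baiap2l2, Ctnna3, Mamdc2, Tmem176b, Cited4 and Tmem176a. Likeness was measured as the root mean square difference between standardised log2 CPM values, which was 0.224 SD for Trem2 and 0.290 SD for Tmem176a, against a median of 1.42 SD over all genes tested. All 7 separated the genotypes without overlap, and so does Bambi, so the measure mainly follows the difference between the groups.

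Tmem176b and Tmem176a, paired transmembrane proteins of myeloid cells, had log2 fold changes of -1.10 and -1.30 (edgeR adjusted p = 9.45e-06 and 6.81e-06). Baiap2l2, Cited4 and Mamdc2 had log2 fold changes of -1.98, -2.28 and -4.77. Ctnna3, an alpha-catenin, was at 0.622 ± 0.150 nRPKM in PS2APP;Trem2wt and had no reads in any PS2APP;Trem2ko mouse. None of the other 9 pathway genes was among them: the nearest were Tgfb1 at 0.670 SD (rank 263 of 17085), Smad7 at 0.716 SD (rank 337) and Tgfbr2 at 0.726 SD (rank 358), and the farthest was Nrros at 1.77 SD (rank 16148).

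Position in the genome and shared sequence were looked at as well. Bambi, Smad2, Smad4 and Smad7 lie on chromosome 18, and none of the 10 lies on chromosome 17, which holds Trem2 and the C57BL/6N sequence around its null allele. Among the genes measured and named here, no other gene overlaps any of the 10, and annotated genes outside that set were not looked at. Of the 50-base words (the read length) in the transcripts of Bambi, Smad2, Smad3, Smad4, Smad7 and Skil, 0 occur in the transcripts of another gene, and for the others at most 0.770% do, in Tgfbr2.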

How the data were processed

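RNA from sorted cells of 13 mice was made into SMART-seq v4 low-input libraries and sequenced as single 50-base reads. The authors discarded adapter, low-quality and ribosomal reads, aligned the rest with GSNAP to GRCm38 and deposited read counts per Ensembl gene. The nRPKM values deposited beside them are RPKM that the authors adjusted by size factors. The annotation release and whether counting used strand are not given in the sources used here. Of 52636 gene IDs, 52489 were named from GENCODE M21 (GRCm38), which also gave coordinates. Groups came from the genotype labels, and replicates were numbered in accession order.

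Counts were tested with edgeR 4.0.16 (R 4.3.3; filterByExpr by genotype, TMM, glmQLFit and glmQLFTest, two-sided, no covariate) over 17086 genes with Benjamini-Hochberg adjustment, called at 0.05. Depth was 26120961 to 120569609 counts per mouse, and replicate error is the spread between mice (common biological coefficient of variation 0.299). All 36 same-genotype pairs of mice differed beyond sampling noise. Alternatives were RLE scaling, voom with limma 3.58.1 (the study's tool), DESeq2 1.42.0, other filters, sex, nRPKM with pseudocounts and leaving out each mouse. The scripts were tested on simulated data, where recovery of large changes fell short of the share first required, and that requirement was then lowered with no fault found. Mice of both genotypes were generally processed in pairs from perfusion to sorting, but the labels do not give the pairs, so every fit ignores them. The 10 genes, 9 pathway lists and 11 marker lists were chosen with earlier results of these data known. Genes named were the 10, each called pathway gene, each list's most abundant gene and the tested one with the largest fold change, the 8 most like Bambi (log2 CPM, prior count 2) and Trem2; exceptions are stated, and some genes the rule picks are not reported here. Promoter sequences were not used, since nothing measured here bears on them.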

Additional observations from a re-analysis of the deposited data

Results flagged for a closer look

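One group of mice held a value far from the others. Smad4 measured 20.6 nRPKM in PS2APP;Trem2ko replicate 4, a female, where the other 5 mice of the group lay between 15.2 and 17.1 nRPKM, and the gap to the nearest of them was 0.645 of the range of the group, above Dixon's 95% critical value of 0.625. Of 20 groups checked (10 genes in 2 genotypes) this was 1, and chance alone gives about 1 in 20.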

How the results depend on the processing

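Bambi kept its call under each of the 22 alternatives run, with a log2 fold change of -2.25 to -2.06 when 1 mouse was left out and -2.23 to -1.89 otherwise, apart from -0.92 with limma on log2(nRPKM + 1), where the pseudocount is close to its level. DESeq2 called 4 of the 10 genes lower in place of 2, adding Tgfb1 and Tgfbr2 (adjusted p = 0.018 and 0.016), and 10 pathway genes in place of 5, adding also Itgav, Ltbp3 and Smurf1; the cause was not tested. Leaving out 1 mouse gave 1 to 4 of the 10 lower, with Smad7 lost in 5 of 13 cases (adjusted p 0.011 to 0.063) and Tgfb1 and Tgfbr2 added without PS2APP;Trem2wt replicate 1, and 4 to 7 pathway genes. Under the 9 other alternatives Smad7 stayed called (adjusted p 0.00039 to 0.034), and under all 22 the count of the 10 called higher was 0. The Smad4 estimate of 0.01 turned to -0.0025 with voom and limma and ran from -0.060 to 0.072 with 1 mouse left out, turning negative without PS2APP;Trem2ko replicate 4 or PS2APP;Trem2wt replicate 1, 2 or 6; the cause was not tested. No other gene of the 10 changed sign. No paired analysis was possible because the labels do not say which mice were processed as a pair, and replicate numbers follow accession order; how pairing would move the calls was not tested. Depth limits the scarce genes most: Bambi rests on as few as 93 reads in a mouse and Gdf15 on 12, and 27 of the 137 pathway genes were too low to test.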
